A study of Homo sapiens with 18 samples.

Results

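The genes described here are 10 regulators of the G1 phase of the cell cycle, chosen by function with no expression value in the rule: the cyclins CCND1, CCND2, CCND3 and CCNE1, the kinases CDK4 and CDK6, the kinase inhibitors CDKN2A, CDKN2B and CDKN1B, and the retinoblastoma gene RB1. Earlier results of these data were known when the members were chosen. All 10 were among the 12853 genes measured by RNA-seq. The experiment compared platinum-sensitive ovarian cancer cell lines with resistant counterparts in 3 pairs, with 3 libraries of rRNA-depleted total RNA for each of 6 lines and 18 libraries in all. A2780 is a sensitive line and CP70 its resistant derivative, selected in culture. PEA1 and PEA2, and likewise PEO1 and PEO4, came from 1 patient per pair, at an earlier, clinically sensitive time and a later, resistant time. The pairs differ in treatment history: PEA1 was taken before platinum treatment, whereas PEO1 was already taken after it. No drug is named for the cells whose RNA was sequenced, and all lines were grown in the same medium. Each group is thus a single line, so a difference within a pair is a difference between 2 lines, and what sets those lines apart beside resistance cannot be told apart from it. Nothing in the labels says whether the libraries of a line came from separate cultures, so the p-values measure only the spread between these libraries.

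The G1 regulators act in sequence. D-type cyclins (CCND1, CCND2, CCND3) bind and activate CDK4 and CDK6, which phosphorylate the retinoblastoma protein and so release E2F transcription factors that switch on genes for DNA replication, among them CCNE1, whose product drives CDK2 to complete that phosphorylation. The INK4 inhibitors, made from CDKN2A and CDKN2B, bind CDK4 and CDK6 directly, and CDKN1B makes p27, which holds cyclin E-CDK2 in check. Loss of CDKN2A, loss of RB1 and gain of CCNE1 are known recurrent alterations in cancers, high-grade serous ovarian cancer included for CCNE1 and RB1.

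Depth ranged from 1344098 to 7067336 reads on listed genes per library, and 3 reads, at or below which expression was taken as not shown, corresponded to 0.452 to 2.18 CPM, the reads of a gene scaled to the size of its library. Intervals and limits from read counts cover counting error only. Replicates differed by more than sampling noise, with a chi-square per degree of freedom of 1.74 to 13.5, and the largest value was between PEO1 replicates 1 and 3. Of 8 serous and epithelial markers (PAX8, WT1, EPCAM, MUC16, MSLN, KRT7, KRT8, KRT18), all 8 had more than 3 reads in every library of PEA2, PEO1 and PEO4, 5 did in PEA1, 3 in CP70 and 0 in A2780, so no serous or epithelial marker was at that level in every A2780 library, and their sum there was 1.68 to 2.84 CPM. PTPRC, the leukocyte marker in the table, and CDH5, the endothelial marker in the table, exceeded 3 reads in PEA2 only, at 20.2 to 25.1 CPM and 25.3 to 36.1 CPM. The other 4 of 5 leukocyte and 2 of 3 endothelial markers were not in the table. The 3 measured fibroblast markers summed to 366 to 447 CPM in PEA1 and 3.17 to 4.12 CPM in PEA2, with DCN and LUM at 3 reads or fewer in both lines. They summed to 5.93 to 12.5 CPM in A2780 and 37.3 to 41.6 CPM in CP70. In bulk RNA, fewer cells of a type and less RNA per cell cannot be told apart, and the part of these markers in the differences between PEA1 and PEA2 or between A2780 and CP70 was not tested.

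CDKN2A and CDKN2B were the members without a single read in 1 pair, and their start regions are shown here for that reason. RefSeq lists 2 starts for CDKN2A, the upstream start of the ARF transcript and the downstream start of the p16 transcript, and 1 for CDKN2B. The 250 bases before each start are given 5′ to 3′ on the minus strand of GRCh38.p14, with each CG dinucleotide (CpG), the site of DNA methylation, in capitals.

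CDKN2A, upstream start, chr9:21995325-21995574: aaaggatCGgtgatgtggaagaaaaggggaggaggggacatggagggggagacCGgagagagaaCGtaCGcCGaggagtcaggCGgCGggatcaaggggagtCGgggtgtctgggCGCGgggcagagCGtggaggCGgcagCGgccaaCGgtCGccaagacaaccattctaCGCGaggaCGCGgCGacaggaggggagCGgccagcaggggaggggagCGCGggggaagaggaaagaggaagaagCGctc
CDKN2A, downstream start, chr9:21974858-21975107: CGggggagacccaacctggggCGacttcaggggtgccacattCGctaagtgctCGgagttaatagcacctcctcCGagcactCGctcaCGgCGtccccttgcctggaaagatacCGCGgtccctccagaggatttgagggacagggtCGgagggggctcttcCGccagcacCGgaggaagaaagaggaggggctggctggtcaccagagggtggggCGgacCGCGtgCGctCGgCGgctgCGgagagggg
CDKN2B, chr9:22009306-22009555: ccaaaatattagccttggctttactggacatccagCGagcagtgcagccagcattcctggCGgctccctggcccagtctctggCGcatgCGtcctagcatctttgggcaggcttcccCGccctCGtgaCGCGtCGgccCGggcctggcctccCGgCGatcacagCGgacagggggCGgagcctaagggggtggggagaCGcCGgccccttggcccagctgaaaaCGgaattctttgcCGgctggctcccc

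These windows held 24, 20 and 18 CpG, against a median of 11 in 35116 RefSeq start windows of the same length, and 23.7%, 32.4% and 36.8% of all windows held at least as many. RefSeq windows were at hand for 8 members, not for CCND1 and CCND2. Neither methylation nor copy number was analysed here, so the sequences are a description of the starts. Because both CDKN2A starts belong to the same gene, the deposited gene-level values cannot separate p16 from ARF transcripts.

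**Figure D1:**
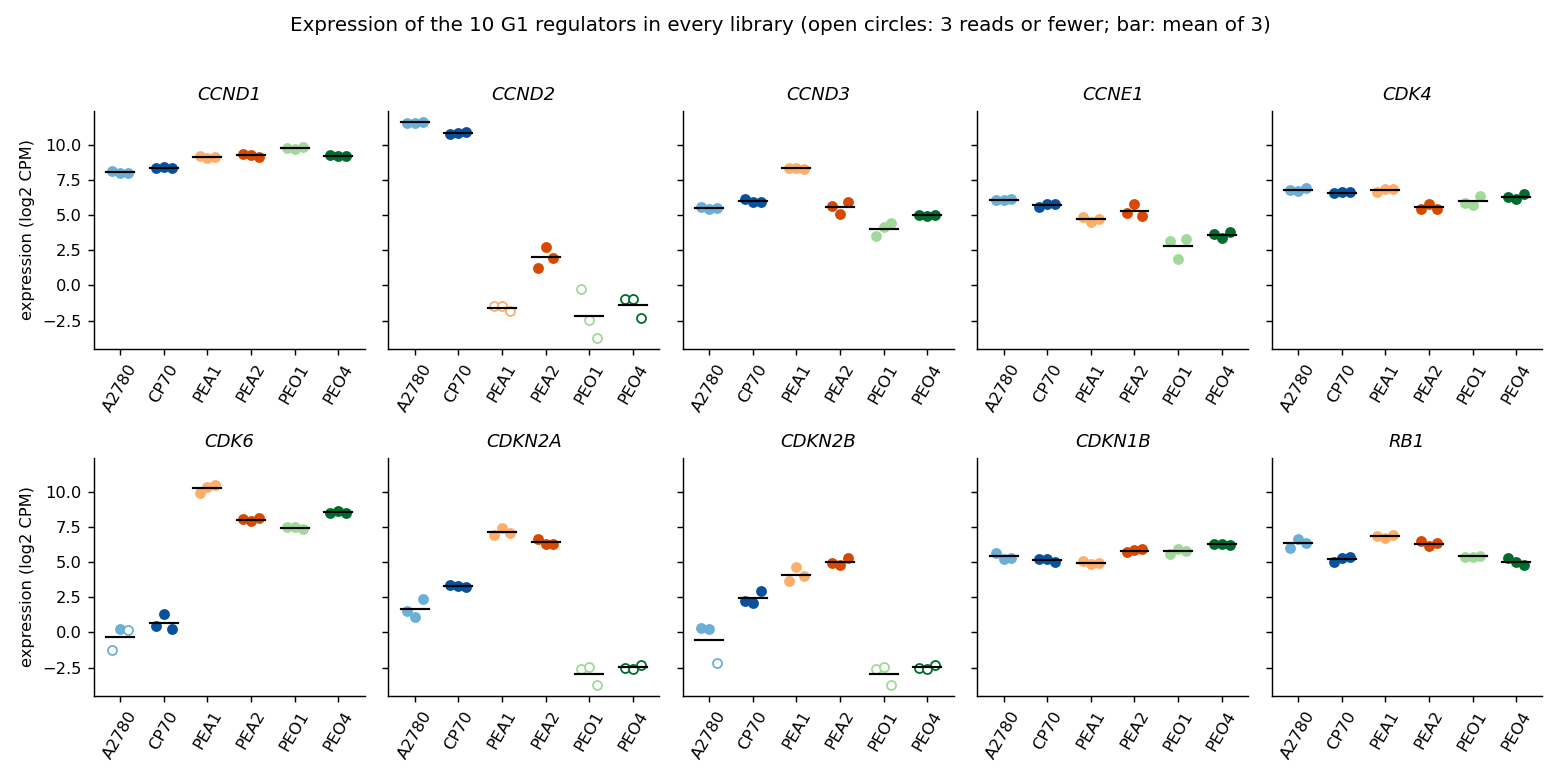
Expression of each member in log2 CPM (vertical axis, shared by all panels) in each of the 18 libraries, by line (horizontal axis). Each circle is a library, open where it held 3 reads or fewer, and each bar is the mean of the 3 libraries of a line. CCND2 is high in A2780 and CP70 only, CDK6 is high in the other 4 lines, and CDKN2A and CDKN2B lie at the floor in PEO1 and PEO4.

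Across the members, the differences within pairs were mixed in direction. Differences are given as log2FC, the mean log2 CPM of the resistant line minus that of the sensitive line, tested with limma across all genes and called at an FDR below 0.05. In the A2780 pair 5 members were higher in CP70 and 1 was lower, where 22.2% of all genes were called higher and 17.7% lower. PEA2 had 2 higher and 4 lower than PEA1, against 32.5% and 29.4% of all genes. In the PEO pair 4 were higher in PEO4 and 1 was lower, against 19.6% and 21.9%. At the stricter threshold of |log2FC| above 2, 1 member was called between A2780 and CP70 (9.06% of all genes), 3 between PEA1 and PEA2 (14.1%) and 0 between PEO1 and PEO4 (6.22%). CCND2, 1 of the 3 in the PEA pair, had 0 reads in every PEA1 library. Its log2FC of 3.58 depends on the reads added and fell as low as 1.82 under the alternatives. In the PEO pair the members called by FDR alone numbered 5, and at |log2FC| above 1 there was 1. For |log2FC| above 1 the share of all genes was not counted. The median log2FC of the members was 0.05, -0.21 and 0.49 in the A2780, PEA and PEO pairs, and that of all genes was -0.02, 0.01 and -0.02. The PEO median includes 3 members with at most 3 reads in either line, whose log2FC comes from library size alone or a few reads.

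**Figure D2:**
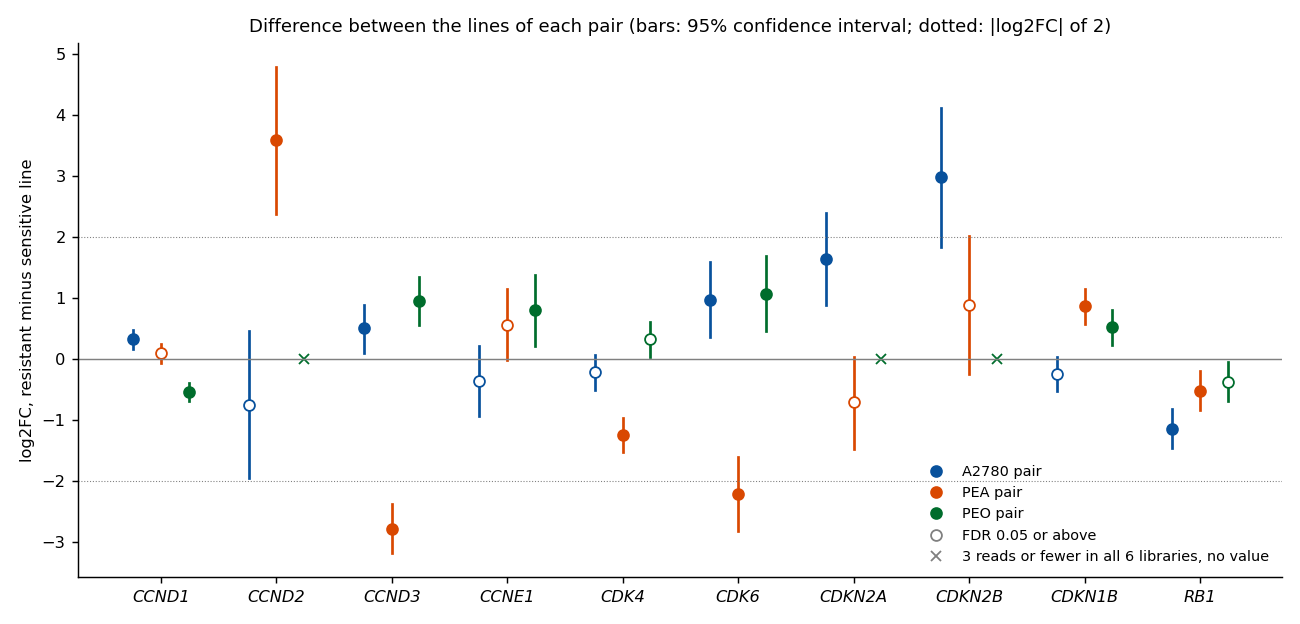
The log2FC of each member (horizontal axis) between sensitive and resistant line in every pair, with bars for the 95% confidence interval (vertical axis, log2 units). Filled circles have an FDR below 0.05, crosses mark members with 3 reads or fewer in all 6 libraries of the pair, and dotted lines mark |log2FC| of 2. CCND3 and CDK6 lie below 0 for PEA2 and above 0 for CP70 and PEO4, while RB1 lies below 0 in all 3.

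Among the D-type cyclins, the lines differed in which gene they used. CCND2 (ENSG00000118971, GRCh37 chromosome 12, 4378937 to 4414519, plus strand) had log2 CPM values of 11.53, 11.56 and 11.63 in A2780 and 10.77, 10.83 and 10.88 in CP70. PEA1 held 0 reads of it in all 3 libraries, PEA2 held 4, 23 and 8 reads, PEO1 held 2, 0 and 0 reads, and PEO4 held 1, 1 and 0 reads. CCND2 was thus abundant in the A2780 pair and near or below the floor elsewhere. The log2FC between A2780 and CP70 was -0.75 ± 0.57 (SE, n = 3 libraries per line; FDR 0.322), although the libraries did not overlap. The SD of the log2 values was 0.05 in each of these lines and up to 1.74 in PEO1, and all 6 lines shared one estimate of the spread. Fitted on the libraries of the pair alone, the same log2FC had an FDR of 6.05e-05, and with voom weights 2.70e-08. CCND2 was called higher in PEA2 than in PEA1 (FDR 2.04e-05), with 4 to 23 reads behind the PEA2 values. As a ratio of means this was at least 2.05-fold against 3 reads in each PEA1 library. The PEA2 library with 4 reads lay below that fold. In the PEO pair both lines held 3 reads or fewer, so no fold is given.

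CCND1 (ENSG00000110092, GRCh37 chromosome 11, 69455924 to 69469242, plus strand) was expressed in every line. Its log2 CPM values were 8.11, 8.02 and 7.99 in A2780 and 8.35, 8.40 and 8.36 in CP70, a log2FC of 0.33 ± 0.07 (SE; FDR 0.00125). PEO1 had the highest values at 9.74, 9.71 and 9.82, and PEO4 had 9.24, 9.18 and 9.22, a log2FC of -0.54 ± 0.07 (FDR 6.19e-06). Neither pair's libraries overlapped, and the directions were opposite. In the PEA pair the values were 9.20, 9.08 and 9.15 in PEA1 and 9.32, 9.24 and 9.15 in PEA2, and the log2FC of 0.09 (95% interval -0.06 to 0.25) did not pass the test (FDR 0.271). After quantile normalization that value was -0.19 with an FDR of 0.0278, so its direction depends on the scaling. In the order of the lines, PEO1 stood above PEA2, PEO4 and PEA1, whose libraries overlapped with their neighbours in the order, and CP70 and A2780 stood below them. CCND1 overlaps LTO1 on the opposite strand, and whether the counting used strand is not stated. LTO1, measured under the name ORAOV1, had mean log2 CPM values of 3.26 to 4.09. Its log2FC of -0.25, 0.17 and -0.41 in the A2780, PEA and PEO pairs were not called (FDR 0.478, 0.595 and 0.225).

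CCND3 (ENSG00000112576, GRCh37 chromosome 6, 41902672 to 42018095, minus strand) showed the largest fall among the members. It had log2 CPM values of 8.36, 8.36 and 8.26 in PEA1 and 5.64, 5.09 and 5.91 in PEA2. The lines were far apart, with a log2FC of -2.78 ± 0.19 (FDR 1.52e-10), and under the alternatives it stayed between -2.96 and -2.55. In the PEO pair it was higher in PEO4, at 5, 4.95 and 5.01 against 3.53, 4.15 and 4.43 in PEO1, with a log2FC of 0.95 ± 0.19 (FDR 0.000395). In the A2780 pair the values were 5.57, 5.45 and 5.53 in A2780 and 6.13, 5.96 and 5.95 in CP70. That log2FC of 0.50 ± 0.19 passed at an FDR of 0.0412, and the call was lost when any 1 of these 6 libraries was left out (FDR 0.0667 to 0.127), after quantile normalization (0.0548) and without the variance trend (0.0708).

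Set on a common scale of reads per kilobase of exon, CCND2 made up 85.8% ± 0.865 (SD, n = 3) of the D-type cyclin reads in A2780 and 73.8% ± 0.819 in CP70. CCND1 made up 12.4% ± 0.793 and 22.5% ± 0.577 there. In the other lines CCND1 took most of the reads, with 68.1% ± 1.35 in PEA1, 93.5% ± 1.67 in PEA2, 98.4% ± 0.410 in PEO1 and 95.8% ± 0.0221 in PEO4. CCND3 reached 31.9% ± 1.35 in PEA1 and 6.14% ± 1.79 or less in every other line. The sum of the 3 genes was 445 ± 11.1 CPM per kilobase in A2780, 308 ± 7.76 in CP70, 174 ± 5.39 in PEA1, 136 ± 6.68 in PEA2, 184 ± 7.76 in PEO1 and 130 ± 2.53 in PEO4. Per kilobase, the summed D-type cyclin level was therefore lower in the resistant line of each pair, with no overlap between the libraries, also with the longest transcript as length and after quantile normalization, both tried after seeing the data, and this sum was not tested. With the longest transcript as length, CCND3 made up 50.1% and CCND1 49.9% in PEA1, so which of them leads in that line depends on the length used.

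**Figure D3:**
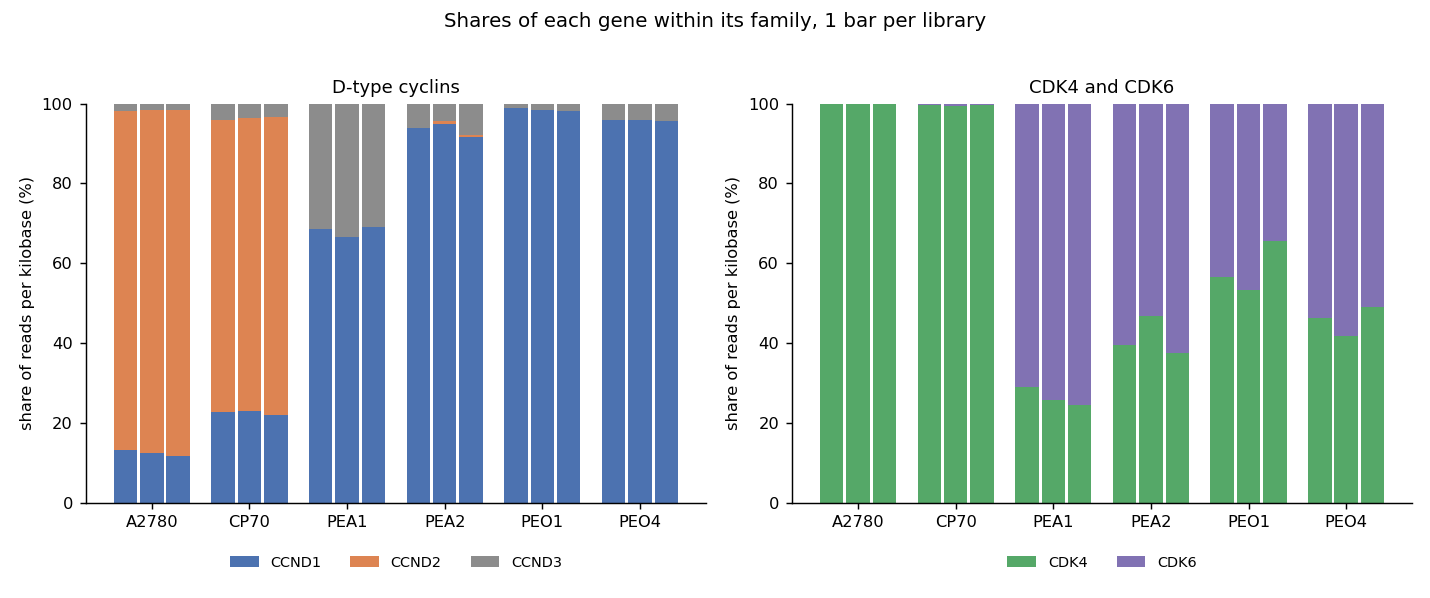
Shares of reads per kilobase of exon (vertical axis, percent, starting at 0) held by each D-type cyclin (left) and by CDK4 and CDK6 (right), with a bar for each library, grouped by line. CCND2 fills most of the bars of A2780 and CP70, CCND1 those of the other lines, and CDK6 is hardly visible in A2780 and CP70.

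CCNE1 (ENSG00000105173, GRCh37 chromosome 19, 30302898 to 30315219, plus strand), the cyclin of CDK2, was highest in the A2780 pair and lowest in the PEO pair. Its log2 CPM values were 6.04, 6.04 and 6.11 in A2780 and 5.57, 5.78 and 5.76 in CP70, with a log2FC of -0.36 ± 0.28 (FDR 0.325, and 0.0118 with the pair fitted alone). In PEA1 they were 4.88, 4.53 and 4.74 and in PEA2 5.13, 5.81 and 4.90, with a log2FC of 0.56 ± 0.28 (FDR 0.0844, and 0.0373 with voom weights). The lines did not overlap in either pair, but neither difference passed the test. In PEO1 the values were 3.17, 1.91 and 3.30 and in PEO4 3.62, 3.39 and 3.76, with a log2FC of 0.80 ± 0.28 (FDR 0.0256). That call rested on PEO1 replicate 2, which held 10 reads: without it the log2FC was 0.36 with an FDR of 0.215. It was also lost without PEO4 replicate 1 (FDR 0.0611), without PEO4 replicate 3 (0.0874), with the pair fitted alone (0.0569) and with voom weights (0.120).

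CDK6 was the kinase that separated the lines most. CDK6 (ENSG00000105810, GRCh37 chromosome 7, 92234235 to 92465887, minus strand) held 1, 4 and 2 reads in A2780 and 8, 10 and 4 reads in CP70. In PEA1 it reached log2 CPM values of 9.88, 10.36 and 10.47, in PEA2 8.03, 7.93 and 8.11, in PEO1 7.47, 7.53 and 7.38, and in PEO4 8.47, 8.64 and 8.50. All 6 lines stood apart in their order, from PEA1 through PEO4, PEA2, PEO1 and CP70 down to A2780. The last step is a tie in reads: the highest A2780 library (log2 CPM 0.22) and the lowest CP70 library (0.24) held 4 reads each. Only library size set these libraries apart. CDK6 was lower in PEA2 than in PEA1, by a log2FC of -2.21 ± 0.29 (FDR 1.81e-06), and higher in PEO4 than in PEO1, by 1.07 ± 0.29 (FDR 0.00569). Between A2780 and CP70 the log2FC was 0.97 ± 0.29 (FDR 0.0115), on 7 against 22 reads in 3 libraries each, a ratio of 2.16 with an exact 95% counting interval of 0.889 to 5.97. That call was lost with the pair fitted alone (FDR 0.145), after quantile normalization (0.464), with voom weights (0.231), with 2 reads added (0.053), without A2780 replicate 1 (0.0915) and without CP70 replicate 2 (0.0930).

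CDK4 (ENSG00000135446, GRCh37 chromosome 12, 58141510 to 58149796, minus strand) varied less. Its log2 CPM values were 6.80, 6.74 and 6.90 in A2780, 6.56, 6.61 and 6.61 in CP70, 5.87, 5.74 and 6.33 in PEO1, and 6.27, 6.17 and 6.46 in PEO4. Neither pair passed the test, with log2FC of -0.22 (95% interval -0.50 to 0.06; FDR 0.211) and 0.32 (0.04 to 0.60; FDR 0.0636). With the pair fitted alone the former had an FDR of 0.0464. The latter was called without PEO1 replicate 3 (log2FC 0.49, FDR 0.00425), without PEA2 replicate 2 (FDR 0.0475) and after quantile normalization (FDR 0.0311). In the PEA pair CDK4 was lower in PEA2, at 5.44, 5.76 and 5.40 against 6.61, 6.85 and 6.86 in PEA1, a log2FC of -1.24 ± 0.14 (FDR 1.44e-07). In the annotation used here, CDK4 overlaps TSPAN31 and MARCHF9 on the opposite strand. The deposited table starts CDK4 at 58146304, inside its annotated span, and the start of MARCHF9 lies outside that. In the PEA pair TSPAN31 had a log2FC of -1.26 (FDR 0.00258), and MARCHF9 had 0.51 and was not called (FDR 0.201). TSPAN31 had -1.45 (FDR 0.00142) in the A2780 pair, where CDK4 was not called.

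Per kilobase of exon, CDK4 made up 99.8% ± 0.0922 (SD, n = 3) of the reads of the kinase pair in A2780 and 99.6% ± 0.178 in CP70. Its share was 26.4% ± 2.37 in PEA1, 41.3% ± 4.78 in PEA2, 58.5% ± 6.37 in PEO1 and 45.7% ± 3.64 in PEO4. With the longest transcript as length the shares were 36.1%, 52.6%, 68.9% and 57% in these 4 lines, so the larger kinase changed in PEA2 and PEO4. The summed level of both kinases was 136 ± 23.9 CPM per kilobase in PEA1, 55.8 ± 2.01 in PEO4 and between 31.3 and 36.4 in the other lines.

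The INK4 genes divided the pairs. CDKN2A (ENSG00000147889, GRCh37 chromosome 9, 21967751 to 21995300, minus strand) had log2 CPM values of 6.93, 7.39 and 7.04 in PEA1 and 6.64, 6.30 and 6.28 in PEA2. In A2780 they were 1.55, 1.13 and 2.36, from 8 to 11 reads, and in CP70 3.40, 3.33 and 3.22, from 35 to 64 reads. PEO1 and PEO4 held 0 reads in all 6 libraries, which allows up to 0.452 to 1.22 CPM at 3 reads. CDKN2A was higher in CP70 than in A2780, by a log2FC of 1.64 ± 0.36 (FDR 0.00104), and the reads of the 3 libraries gave a ratio of 3.33 with an exact 95% counting interval of 2.22 to 5.16. Under the alternatives this log2FC lay between 0.95 and 1.98 and stayed called. In the PEA pair the log2FC was -0.71 (95% interval -1.47 to 0.04; FDR 0.0931), although the libraries did not overlap. That difference passed with the pair fitted alone (FDR 0.00280), after quantile normalization (0.00896) and with voom weights (4.42e-05).

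CDKN2B (ENSG00000147883, GRCh37 chromosome 9, 22002902 to 22009304, minus strand) lies beside CDKN2A and followed the same order of pairs. It had log2 CPM values of 3.67, 4.62 and 4.04 in PEA1 and 4.91, 4.77 and 5.29 in PEA2, and 0 reads in all 6 PEO libraries. A2780 held 4, 4 and 0 reads and CP70 held 28, 18 and 29 reads. The log2FC between them was 2.98 ± 0.54 (FDR 0.000157), the only member past |log2FC| of 2 in that pair, and the reads gave a ratio of 6.43 with an exact 95% counting interval of 3.10 to 15.4. Between PEA1 and PEA2 the log2FC of 0.88 ± 0.54 (FDR 0.165) was not called, and it passed with the pair fitted alone (0.0211), with voom weights (0.0111) and with 2 reads added (0.0485). Both genes overlap the antisense gene CDKN2B-AS1, and the counting's use of strand is not stated.

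The genes around CDKN2A in the PEO lines were examined after their values were seen. Outward from CDKN2A to the first measured gene with more than 3 reads in every PEO library, 7 genes other than those flanks were listed, and 6 of them (PTPLAD2, KLHL9, MTAP, CDKN2A, CDKN2B and DMRTA1) had at most 3 reads in all 6 PEO libraries. Of all 12853 genes, 310 (2.41%) had at most 3 reads in all PEO libraries. The low PEO values set the extent of this stretch, so the count of 6 is a description and no more. KLHL9 had 1 read in 1 PEO1 library, and the other 5 had 0. KHSRPP1, a processed pseudogene whose reads could come from KHSRP, had 1 to 6 reads. MTAP, an enzyme of methionine salvage, is next to CDKN2A and had mean log2 CPM values of 5.90 in A2780, 6.85 in CP70, 5.86 in PEA1 and 6.13 in PEA2. DMRTA1 also had 0 reads in A2780, and PTPLAD2 had 2 to 6 reads there, so these genes do not single out the PEO lines. The flanking genes were expressed in the PEO lines, with FOCAD at a mean log2 CPM of 3.39 in PEO1 and 3.32 in PEO4 against 5.97 to 6.52 in the other lines, and TUSC1 at 3.60 and 3.98 against 1.36 to 3.85. The listed stretch runs from the start of PTPLAD2 at 20999508 to the end of DMRTA1 at 22455739 on chromosome 9 of GRCh37.

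**Figure D4:**
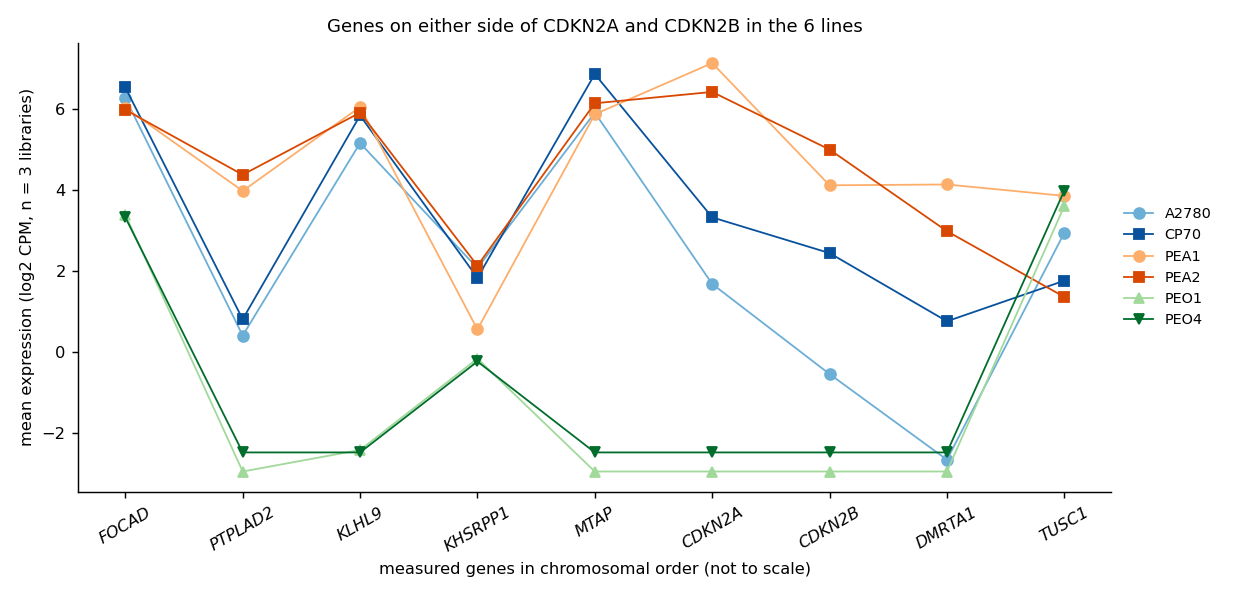
Mean expression in log2 CPM (vertical axis, 3 libraries per line) of the measured genes from FOCAD to TUSC1 in chromosomal order (horizontal axis, not to scale), with a coloured line for each cell line. PEO1 and PEO4 lie at the floor from PTPLAD2 to DMRTA1 except at the pseudogene KHSRPP1. The gap between PEO1 and PEO4 at the floor comes from library size, since both hold no reads of 5 of these genes.

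CDKN1B (ENSG00000111276, GRCh37 chromosome 12, 12838432 to 12875303, plus strand), which makes p27, was expressed at similar levels in all lines, with line means from 4.96 in PEA1 to 6.27 in PEO4. It was higher in PEA2, at 5.69, 5.87 and 5.91 against 5.11, 4.85 and 4.92 in PEA1, a log2FC of 0.86 ± 0.14 (FDR 1.50e-05). It was also higher in PEO4, at 6.28, 6.31 and 6.23 against 5.56, 5.93 and 5.78 in PEO1, a log2FC of 0.52 ± 0.14 (FDR 0.00431). The libraries did not overlap in either of these pairs. In the A2780 pair the values overlapped, at 5.66, 5.22 and 5.32 in A2780 and 5.21, 5.25 and 5 in CP70, and the log2FC was -0.25 (95% interval -0.53 to 0.04; FDR 0.160). In the annotation used here, GPR19 overlaps CDKN1B on the opposite strand. The deposited table starts CDKN1B at 12867992, inside its annotated span.

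RB1 (ENSG00000139687, GRCh37 chromosome 13, 48877880 to 49173572, plus strand) was lower in the resistant line of each pair, with no overlap of libraries, and passed the test in 2 of the 3 pairs. Its log2 CPM values were 6.03, 6.65 and 6.35 in A2780 and 4.99, 5.27 and 5.35 in CP70, a log2FC of -1.14 ± 0.15 (FDR 4.25e-06). In PEA1 they were 6.87, 6.73 and 6.91 and in PEA2 6.48, 6.15 and 6.33, a log2FC of -0.52 ± 0.15 (FDR 0.00631). In PEO1 they were 5.37, 5.38 and 5.45 and in PEO4 5.28, 5.02 and 4.78, a log2FC of -0.37 (95% interval -0.69 to -0.05; FDR 0.0593). The last difference passed with the pair fitted alone (FDR 0.0421), without A2780 replicate 1 (0.0381), without A2780 replicate 2 (0.0391) and without PEO4 replicate 1 (0.0223). The deposited table ends RB1 at 48934873, short of the end in the annotation used here, so its reads may cover part of the gene. In that annotation LPAR6 and RCBTB2 overlap it on the opposite strand, but the start of RCBTB2 lies beyond the deposited end of RB1. RCBTB2 had log2FC of -1.60 (FDR 0.00673), -3.73 (FDR 4.85e-07) and -0.69 (FDR 0.236) in the A2780, PEA and PEO pairs. Its mean log2 CPM of -0.98 in PEA2 is near the floor, so the size of -3.73 depends on the reads added.

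The change between the lines of a pair differed among the 3 pairs for all 10 members (F test, FDR below 0.05), where 75.3% of all genes did. For CCND3, the log2FC of the PEA pair was lower than that of the A2780 pair (difference -3.28 ± 0.27, FDR 3.08e-09), and that of the PEO pair was higher than that of the PEA pair by 3.73 ± 0.27 (FDR 5.67e-10). For CDK6 the same differences were -3.18 ± 0.41 (FDR 1.87e-06) and 3.29 ± 0.41 (FDR 1.25e-06). For CDKN2A the PEA pair differed from the A2780 pair by -2.35 ± 0.51 (FDR 0.000579), and for CDKN2B by -2.09 ± 0.77 (FDR 0.0251). For RB1 the A2780 pair had the more negative log2FC, with differences of 0.62 ± 0.22 to the PEA pair (FDR 0.0193) and 0.77 ± 0.22 to the PEO pair (FDR 0.00623), while the PEA and PEO pairs differed by 0.15 ± 0.22 (FDR 0.578).

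In a linear model of resistance over all pairs, 2 members were called, against 24.1% of all genes. RB1 was lower in the resistant lines with a log2FC of -0.68 ± 0.13 (FDR 0.00129), and CDKN2B was higher with a log2FC of 1.44 ± 0.43 (FDR 0.0233). The CDKN2B value takes in the PEO pair, where there are no reads and the difference comes from library size. After quantile normalization CDKN2B had an FDR of 0.0962, and with each pair as 1 replicate both genes had an FDR of 0.980. CDKN1B had a log2FC of 0.38 ± 0.14 (FDR 0.0588).

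Of 62 other genes of the pathway, 59 were measured, with CDKN1C, CDKN2D and BBC3 not in the table. In CP70 13 were higher and 17 lower, where 22.2% and 17.7% of all genes were. In PEA2 17 were higher and 23 lower, against 32.5% and 29.4%, and in PEO4 10 and 21, against 19.6% and 21.9%. The counts of the single lists and of the neighbouring genes have the same shares of all genes as background. Their median log2FC was -0.14, -0.10 and -0.28, against -0.02, 0.01 and -0.02 for all genes. Genes of the lists are named mainly in a pair where their change was among the largest. Several were also called in other pairs, some in the opposite direction. Both measured CDK inhibitors outside the members were called in every pair. CDKN1A, which makes p21, had log2 CPM values of 6.58, 6.19 and 6.51 in A2780 and 2.00, 2.13 and 1.72 in CP70, a log2FC of -4.48 ± 0.36 (FDR 3.09e-09). In the PEO pair it was higher in PEO4, by 1.25 ± 0.36 (FDR 0.00872). It was also higher in PEA2 than in PEA1, by 1.05 ± 0.36 (FDR 0.0169), with overlapping libraries. CDKN2C, another INK4 inhibitor, had values of 5.68, 5.52 and 5.24 in PEA1 and 2.85, 2.70 and 2.39 in PEA2, a log2FC of -2.83 ± 0.19 (FDR 1.43e-10). It was higher in CP70 by 1.15 ± 0.19 (FDR 5.82e-05) and in PEO4 by 0.92 ± 0.19 (FDR 0.000591).

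Of 6 other G1/S kinases, cyclins and activators, 0 were called in the A2780 pair, 3 were higher and 2 lower in the PEA pair, and 0 higher and 1 lower in the PEO pair. CDK7 and CCNH, subunits of the CDK-activating kinase, were higher in PEA2, with log2FC of 2.39 ± 0.25 (FDR 6.86e-08) and 1.54 ± 0.13 (FDR 4.91e-09), as was its other subunit MNAT1 (0.52, FDR 0.0171). CDC25A, a phosphatase that activates CDK2, was lower in PEO4, by a log2FC of -0.45 ± 0.12 (FDR 0.00579). Of 9 genes for G1 protein degradation, 4 were higher and 2 lower in CP70, 3 higher and 4 lower in PEA2, and 1 higher and 1 lower in PEO4. SKP2, which directs p27 to degradation, was lower in CP70 with a log2FC of -0.61 ± 0.12 (FDR 0.000376), where RBX1, a ubiquitin ligase subunit, was higher by 0.73 ± 0.26 (FDR 0.0315). FBXW7, which directs cyclin E to degradation, was lower in PEA2 by a log2FC of -0.90 ± 0.19 (FDR 0.000459). The scaffold CUL1 was higher in PEA2 (log2FC 0.89 ± 0.12, FDR 1.57e-06) and lower in PEO4 (-0.79 ± 0.12, FDR 1.70e-05), and the adaptor SKP1 was higher in PEO4 (0.96 ± 0.11, FDR 3.99e-07).

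Of 12 pocket proteins, E2F and DP factors, 4 were higher and 2 lower in CP70, 3 higher and 4 lower in PEA2, and 2 higher and 6 lower in PEO4. The DP partners of the E2F factors were lower in CP70, TFDP1 by a log2FC of -1.03 ± 0.10 (FDR 8.83e-08) and TFDP2 by -0.84 ± 0.15 (FDR 0.000134). TFDP1 was also lower in PEO4 (-0.77, FDR 5.41e-06) but higher in PEA2 (0.60, FDR 5.43e-05). E2F6 and E2F2 were lower in PEA2, with log2FC of -1.38 ± 0.19 (FDR 3.58e-06) and -1.21 ± 0.23 (FDR 0.000143). E2F2 was also lower in PEO4 (-0.64, FDR 0.032) but higher in CP70 (0.83, FDR 0.00664). The 2 factors called higher in PEO4 were E2F5, at 1.67 ± 0.17 (FDR 1.60e-07), and E2F3, at 1.07 ± 0.14 (FDR 2.68e-06). E2F3 was also higher in CP70 (0.41, FDR 0.0199) but lower in PEA2 (-0.39, FDR 0.0183). Of 21 E2F target genes of S phase entry, 2 were higher and 6 lower in CP70, 4 higher and 8 lower in PEA2, and 2 higher and 11 lower in PEO4. The median log2FC of this list was -0.21, -0.11 and -0.34 in the 3 pairs. PCNA, the sliding clamp of DNA polymerases, had log2 CPM values of 8.07, 8.02 and 7.85 in PEO1 and 6.47, 6.24 and 6.34 in PEO4, a log2FC of -1.63 ± 0.09 (FDR 3.11e-11). PCNA was also lower in CP70 (log2FC -0.52, FDR 9.06e-05) and in PEA2 (-0.38, FDR 0.00097). UHRF1, which maintains DNA methylation, was lower in PEO4 by a log2FC of -0.90 ± 0.16 (FDR 9.56e-05) and in CP70 by -0.60 ± 0.16 (FDR 0.00394), where the helicase subunit MCM4 was lower by -0.70 ± 0.11 (FDR 3.12e-05). MCM4 was also lower in PEA2 (log2FC -0.40, FDR 0.00369) and in PEO4 (-0.69, FDR 3.85e-05). TYMS, thymidylate synthase, was lower in PEA2 by a log2FC of -2.36 ± 0.12 (FDR 2.29e-12), and CDC45, a replicative helicase factor, was higher there by 1.82 ± 0.20 (FDR 1.36e-07).

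ARF, the second product of CDKN2A, binds MDM2, and 9 of 10 genes listed for that arm were measured. In CP70 2 were higher and 6 lower, in PEA2 3 higher and 4 lower, and in PEO4 3 higher and 2 lower. GDF15, a secreted stress-response factor, had log2 CPM values of 3.98, 4.06 and 4.31 in A2780 and 6, 1 and 1 reads in CP70, with a log2FC of -5.03 ± 0.66 (FDR 3.19e-06). In the PEA pair it was higher in PEA2, with 162, 452 and 226 reads against 4, 2 and 1 in PEA1 and a log2FC of 5.94 ± 0.66 (FDR 1.87e-07). FAS, a death receptor, was higher in PEA2 by 2.25 ± 0.15 (FDR 1.29e-10) and in CP70 by 0.61 (FDR 0.00291). ZMAT3, an RNA-binding zinc finger protein, was lower in PEO4 by a log2FC of -0.94 ± 0.13 (FDR 1.08e-05). ZMAT3 was also lower in CP70 (log2FC -1.52, FDR 1.2e-08) and was higher in PEA2 (1.47, FDR 1.13e-08), so its direction differed between pairs.

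**Figure D5:**
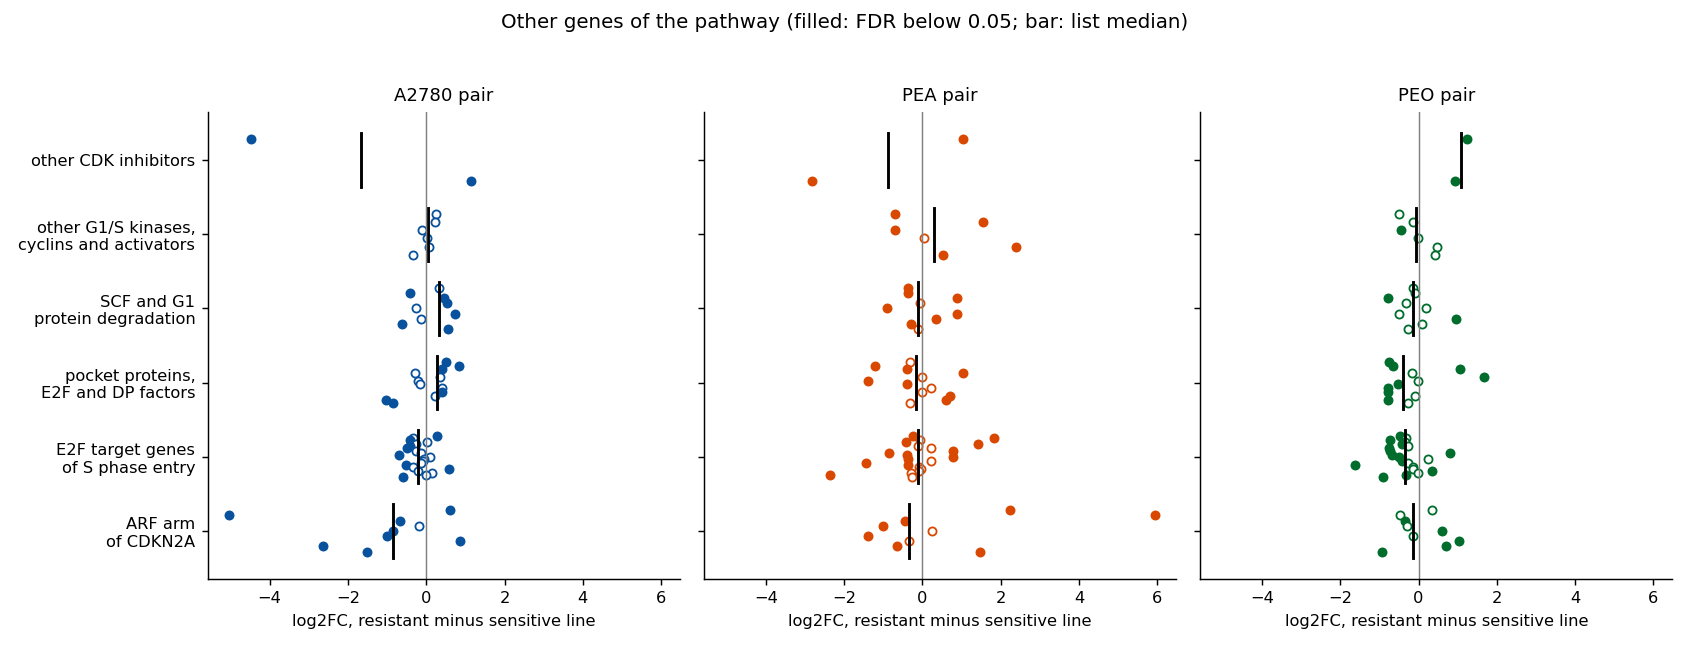
The log2FC (horizontal axis, log2 units) of the 59 other measured pathway genes in 6 lists (vertical axis), with a panel for each pair. Each circle is a gene, filled where the FDR is below 0.05, and each bar is the median of the list. CDKN1A in the A2780 pair at -4.48 and GDF15 in the A2780 and PEA pairs at -5.03 and 5.94 lie farthest from 0.

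Genes within 500 kb of each member were described from the same fit, and counts are given for part of the members only. Of all genes, 22.2% were called higher and 17.7% lower in CP70, 32.5% and 29.4% in PEA2, and 19.6% and 21.9% in PEO4. Of 8 genes around RB1, 6 were lower in CP70 and 0 higher, 7 were lower in PEA2 and 0 higher, and 1 was lower and 2 higher in PEO4. The gene before RB1, ITM2B, had log2FC of -0.62 (FDR 0.000228), -1.10 (FDR 9.55e-08) and 1.02 (FDR 6.92e-07) in the A2780, PEA and PEO pairs. The nearest measured gene after RB1, the pseudogene PSME2P2, had 0.06, -1.12 and 1.24. Of 19 genes around CDK4, 12 were lower and 2 higher in PEA2, and its neighbours METTL1 and OS9 had log2FC of -1.36 (FDR 0.000497) and -0.61 (FDR 0.000215) there. In CP70 4 of the genes around CDK4 were lower and 2 higher, and in PEO4 4 were lower and 4 higher. Of 12 genes around CDKN1B, 8 were higher and 0 lower in PEA2, 2 higher and 3 lower in PEO4, and 6 higher and 2 lower in CP70, where CDKN1B was not called. Its neighbour CREBL2 had no call in any pair, and APOLD1 had log2FC of -3.31 (FDR 1.18e-07), 1.77 (FDR 0.000162) and 0.09 (FDR 0.865) in the A2780, PEA and PEO pairs. Of 11 genes around CCND3, 7 were higher and 0 lower in PEO4, its neighbours BYSL (1.03, FDR 0.000336) and TAF8 (0.79, FDR 0.000535) among them, while in PEA2 3 were higher and 5 lower, and BYSL and TAF8 had -0.23 (FDR 0.329) and -0.16 (FDR 0.397). In CP70, where CCND3 was called higher, 0 of the genes around it were higher and 1 was lower.

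Within 250 kb of RB1, 3 and 4 of 5 genes were lower in CP70 and PEA2, with 0 higher. In PEO4, 2 of them were higher and 0 lower. In PEA2, 12 of 17 genes around CDK4 were lower and 1 higher, and 5 of 6 around CDKN1B were higher and 0 lower. Around CCND3, 5 of 9 were higher and 0 lower in PEO4. Within 500 kb of CDK6, 4 of 11 genes were higher and 3 lower in PEA2, where CDK6 was lower. In PEO4, 4 of them were higher and 0 lower, and in CP70 2 were higher and 2 lower. Of 9 genes around CCND2, 4 were higher and 3 lower in PEA2, 0 higher and 5 lower in CP70, and 1 higher and 3 lower in PEO4. Around CDKN2A and CDKN2B, the same 3 genes other than these members lay within 500 kb of each, and 2 of them were higher in CP70, MTAP by a log2FC of 0.95 (FDR 0.0186) and DMRTA1 with 5 to 11 reads against 0 in every A2780 library (FDR 6.37e-06). Next to CCND2, C12orf5 was lower in CP70 by a log2FC of -1.90 (FDR 4.74e-06) and in PEO4 by -1.52 (FDR 7.86e-05) and higher in PEA2 by 0.78 (FDR 0.0134), and the pseudogene HSPA8P5 on the other side had no call in any pair. Next to CDK6, SAMD9 was higher in PEO4 by 1.93 (FDR 5.08e-06) and in PEA2 by 0.70 (FDR 0.0254), where FAM133B was lower by a log2FC of -0.78 (FDR 0.01). Beside CCND1, MYEOV was called higher in CP70 (FDR 7.23e-13), at a mean log2 CPM of 1.99 against -2.65 in A2780. ANO1 was called higher in PEA2 (FDR 9.02e-10), at 6.62 against -1.05 in PEA1. The sensitive lines lie near the floor there, so the sizes of these differences depend on the reads added. Beside CCNE1, URI1 and C19orf12 had log2FC of 0.44 (FDR 0.0406) and 0.31 (FDR 0.221) in the PEO pair.

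The gene most alike each member across the 18 libraries, by Pearson correlation of log2 values, was PPP2R5C for CCND1 (r = 0.975), SNRNP40 for CCND2 (0.977), MTMR2 for CCND3 (0.961), AURKB for CCNE1 (0.956) and NUDT5 for CDK4 (0.938). For CDK6 it was B2M (0.992), for CDKN2A ANXA5 (0.976), for CDKN2B MKI67 (0.966), for CDKN1B RAB11B (0.923) and for RB1 WDR26 (0.948). These are descriptions over 6 lines, whose 3 libraries each share a line, and were picked from genes with a mean above the median of all genes. For CDKN2A and CDKN2B the PEO values come from 0 reads and so from library size. CDK6 held 1 to 10 reads in A2780 and CP70, and CCND2 held 0 to 23 in the PEA and PEO lines. The r of these 4 members thus takes in values at or near the floor.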

How the data were processed

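RNA-seq of 18 libraries from 6 lines was analysed. Per the labels and methods, the libraries were directional, and the authors counted reads per hg19 gene in featureCounts before normalization in limma. The submitters' processing notes also name Bowtie2. What the authors deposited is log2 CPM, for 12853 genes, after an addition of 0.5 reads per count. Whole reads were recovered for 100% of the values (within 0.01 reads), which gave the depth. Every sample column was used.

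Tests used limma 3.58.1 (R 4.3.3) on those log2 values, with a variance trend, in 1 fit with a mean per line and Benjamini-Hochberg adjustment over all genes. Levels were set between genes after division by exon length (GENCODE on GRCh37), which matched 12642 of 12853 identifiers. A fold against a line with at most 3 reads per library was computed against 3 reads. Promoter windows came from RefSeq (GRCh38.p14). Calculations were tested on simulated data.

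Samples were grouped by the line in their titles. Replicate numbers did not pair the libraries: correlations of same-numbered libraries were at most 0.0782. Members and lists were chosen with earlier results of these data known. All members are named. Of each other list the text names, per pair, the 2 largest |log2FC| among called genes whose libraries do not overlap and whose lines do not both lie at 3 reads or fewer, then the nearest measured gene on each side of a member and the most correlated gene. Of the genes that this rule would name, 2 are not reported here, though the counts of their list include them. CDKN1A in the PEA pair, the remaining genes of the stretch around CDKN2A, TSPAN31, MARCHF9, RCBTB2 and MNAT1 were named after their values were seen. Values of PCNA, MCM4, FAS, ZMAT3, TFDP1, E2F2 and E2F3 in pairs outside the rule were also added at that stage. The alternatives were the replicate block, fits of single pairs, removal of genes with a mean log2 of 0 or less, quantile normalization, no trend, voom weights, 2 reads added, another threshold, length or distance, and leaving out each library.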

Additional observations from a re-analysis of the deposited data

Results flagged for a closer look

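The difference between the lines of a pair was itself different among the 3 pairs for every member, by an F test in limma with adjustment over all genes. The FDR was 1.11e-06 for CCND1, 0.000305 for CCND2, 3.43e-10 for CCND3, 0.0269 for CCNE1, 1.92e-06 for CDK4, 5.87e-07 for CDK6, 0.00147 for CDKN2A, 0.0130 for CDKN2B, 0.000110 for CDKN1B and 0.00780 for RB1. Of all genes, 75.3% passed the same test, and the count of 10 of 10 is to be read against that share. For CDKN2A, CDKN2B and CCND2 the test takes in the PEO pair, whose lines hold 3 reads or fewer. Leaving out 1 library gave 9 or 10 members.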

How the results depend on the processing

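With a block for the replicate number, members called higher and lower were 5 and 1 in the A2780 pair, 2 and 4 in the PEA pair and 4 and 1 in the PEO pair, the other pathway genes called numbered 31, 40 and 32, and the block changed no member's call. After quantile normalization 3 members were higher in CP70, 1 was called in the linear model, and CCND1 in the PEA pair had a log2FC of -0.19. That scaling moved the median log2FC of all genes in the PEA pair from 0.01 to -0.10. With each pair fitted alone 4 members were lower in CP70 and 2 in PEO4. With voom weights 2 were lower in CP70 and 4 were higher in PEA2. At |log2FC| above 1, 3 members were called between A2780 and CP70 and 1 between PEO1 and PEO4. The share of all genes at this threshold was not counted, so these counts have no background. With the pairs as replicates, the linear model called 0 members, in a design of 3 differences. Leaving out 1 library gave 3 to 5 members higher and 1 lower in CP70 (3 without A2780 replicate 1 or CP70 replicate 2), 2 to 3 higher and 4 lower in PEA2, and 3 to 5 higher and 1 to 2 lower in PEO4 (2 without A2780 replicate 1, A2780 replicate 2 or PEO4 replicate 1). It gave 23 to 32, 33 to 40 and 28 to 33 other pathway genes, and 2 to 3 members in the linear model. The causes were not tested. Depth limits CCND2, CDK6, CDKN2A and CDKN2B in lines where they held 11 reads or fewer.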
